A study of Mus musculus with 8 samples.

Results

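The 9 fibroblast growth factor (FGF) ligand genes *Fgf1*, *Fgf2*, *Fgf7*, *Fgf9*, *Fgf10*, *Fgf16*, *Fgf17*, *Fgf18* and *Fgf21* were examined for binding of PBRM1 and BRG1 in mouse uterine stromal cells. They are 9 of the 21938 protein-coding genes of the annotation and were chosen by name. A peak was assigned to a ligand when it overlapped the 2 kb on either side of any annotated transcription start site (TSS) of the gene (its promoter), the gene body, or the 100 kb upstream, and these regions together are called its territory. *Fgf1*, *Fgf7*, *Fgf16*, *Fgf17*, *Fgf18* and *Fgf21*, which the study names as raised in stromal cells without *Pbrm1*, were kept apart from *Fgf2*, *Fgf9* and *Fgf10*. The study used chromatin immunocleavage sequencing (ChIC-Seq), in which an antibody carries a protein A-micrococcal nuclease fusion to its target and the DNA released there is sequenced. PBRM1 (also called BAF180) is a subunit of the PBAF form of the SWI/SNF chromatin remodeler, and BRG1 is an ATPase shared by several forms of that remodeler. Both antibodies were used on 3 replicates of primary uterine stromal cells (mUSCs) from WT mice aged 8 to 12 weeks on day 4 (D4), which the labels call pregnancy in one field and pseudopregnancy in another. Uterine horns of 5 to 10 mice were pooled, the cells were plated for a few hours, and 50000 cells per library were fixed in formaldehyde for 5 min. No cells lacking PBRM1 or BRG1 were among these ChIC-Seq samples, so all the values below describe WT cells. The labels do not say that the replicates came from separate cultures or animals, so their p-values measure only the spread between these libraries.

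FGFs are secreted growth factors that bind tyrosine kinase receptors on nearby cells, with heparan sulfate or a Klotho protein as cofactor, and signal through the docking protein FRS2 to the ERK pathway. In the uterus, ligands made by stromal cells act on receptors of the overlying epithelium, and progesterone restrains this signal through the stromal transcription factor HAND2 before an embryo implants. FGF1 and FGF2 are the acidic and basic members and lack a classical signal peptide. FGF7 and FGF10 are mesenchymal ligands for the epithelial form of FGFR2, FGF9 and FGF16 belong to a common subfamily, as do FGF17 and FGF18, and FGF21 is an endocrine ligand that needs β-Klotho.

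The sequences under the sites that the results turn on are printed in lower case, 5′ to 3′ on the strand of the gene, with CpG dinucleotides in capitals. Each window is centred on the summit of the pooled peak. The *Fgf18* promoter window (minus strand of mm10, chr11:33148335-33148535) and the *Fgf18* intron window (minus strand, chr11:33122886-33123086) are shown because a peak lay there in all 6 replicate lists. The *Fgf16* promoter window (plus strand, chrX:105763051-105763251) is shown because a peak lay there in all 3 BRG1 lists and in no PBRM1 replicate list.
Fgf18 promoter site: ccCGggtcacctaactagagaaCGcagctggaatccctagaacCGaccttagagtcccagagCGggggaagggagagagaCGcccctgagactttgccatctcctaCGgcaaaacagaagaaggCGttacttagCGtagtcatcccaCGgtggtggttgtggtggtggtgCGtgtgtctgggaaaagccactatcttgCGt
Fgf18 intron site: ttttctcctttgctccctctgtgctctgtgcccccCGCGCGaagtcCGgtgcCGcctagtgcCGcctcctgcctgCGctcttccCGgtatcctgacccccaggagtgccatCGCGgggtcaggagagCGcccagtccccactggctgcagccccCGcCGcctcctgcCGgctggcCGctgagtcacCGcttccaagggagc
Fgf16 promoter site: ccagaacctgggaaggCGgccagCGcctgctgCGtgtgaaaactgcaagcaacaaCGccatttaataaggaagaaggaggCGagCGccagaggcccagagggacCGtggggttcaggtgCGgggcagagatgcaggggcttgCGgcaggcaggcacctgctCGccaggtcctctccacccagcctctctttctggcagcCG
The *Fgf18* promoter site held 11 CpG dinucleotides at 56.2% GC, its intron site 16 at 70.1% GC, and the *Fgf16* site 11 at 64.2% GC.

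For 4 ligands the 250 bases before the TSS are printed from the RefSeq promoter table (GRCm38.p6), which matched 6 of the 9 ligands. They are shown because no promoter site of these ligands is printed above. The bases before other TSSs and before the TSSs of other ligands are not printed. The coordinates are chr2:126034408-126034657 on the plus strand for *Fgf7*, chr14:58072436-58072685 on the plus strand for *Fgf9*, chr13:118714449-118714698 on the plus strand for *Fgf10* and chr7:45615491-45615740 on the minus strand for *Fgf21*.
Fgf7 promoter: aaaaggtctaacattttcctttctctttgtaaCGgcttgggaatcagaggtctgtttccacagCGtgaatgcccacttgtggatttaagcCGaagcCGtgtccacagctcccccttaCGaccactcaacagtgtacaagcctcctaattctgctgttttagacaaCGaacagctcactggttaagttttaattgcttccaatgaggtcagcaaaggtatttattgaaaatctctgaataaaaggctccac
Fgf9 promoter: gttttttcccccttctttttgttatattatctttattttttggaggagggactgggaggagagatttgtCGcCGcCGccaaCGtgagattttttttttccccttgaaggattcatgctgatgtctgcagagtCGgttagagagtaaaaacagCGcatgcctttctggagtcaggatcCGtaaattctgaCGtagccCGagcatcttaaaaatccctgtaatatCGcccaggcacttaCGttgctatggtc
Fgf10 promoter: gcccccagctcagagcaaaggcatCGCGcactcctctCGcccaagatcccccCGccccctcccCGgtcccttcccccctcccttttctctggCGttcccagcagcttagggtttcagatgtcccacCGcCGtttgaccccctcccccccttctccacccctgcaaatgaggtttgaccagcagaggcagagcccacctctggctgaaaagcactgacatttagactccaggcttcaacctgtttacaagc
Fgf21 promoter: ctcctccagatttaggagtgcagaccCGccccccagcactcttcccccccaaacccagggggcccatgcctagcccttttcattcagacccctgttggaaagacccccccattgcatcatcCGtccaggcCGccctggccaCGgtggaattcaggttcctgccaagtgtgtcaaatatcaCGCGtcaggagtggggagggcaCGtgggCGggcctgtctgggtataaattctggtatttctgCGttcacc
These windows held 6 CpG dinucleotides for *Fgf7*, 11 for *Fgf9*, 8 for *Fgf10* and 9 for *Fgf21*. The pooled BRG1 peak of *Fgf7* overlapped its window, and the common *Fgf10* site began just downstream of its window, whose 5′ end met a site of the pooled BRG1 list. The peaks nearest to the *Fgf9* and *Fgf21* windows lay outside them.

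The peaks had been called separately in every replicate and once more after the fragments of an antibody were combined. PBRM1 replicates held 8868777 to 16505239 fragments and 21912 to 26363 peaks, and BRG1 replicates 11506964 to 14595089 fragments and 36656 to 40610 peaks. The pooled lists held 55119 PBRM1 and 82669 BRG1 peaks. Each peak is described by its fold enrichment, the fragment pileup at the summit over the local background, and by the q-value of that enrichment. No control library entered the calls, and the 2 IgG libraries of the series were not analysed here. Among markers of the labelled cells, 11 of 11 stromal genes had a promoter peak in both pooled lists, 7 of them in all 6 replicate lists. For all protein-coding genes these shares were 67.7% and 51.9%. In both pooled lists the counts were 8 of 8 epithelial genes, 2 of 3 endothelial genes, 2 of 3 smooth muscle genes and 0 of 3 immune genes. In all 6 replicate lists they were 1 epithelial, 1 endothelial, 1 smooth muscle and 0 immune genes. Promoter peaks thus did not separate stromal from epithelial markers in the pooled lists.

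Most ligand promoters carried a peak of both antibodies once replicates were pooled, but few did so in every replicate. A promoter peak was present for 8 of the 9 ligands in the pooled PBRM1 list, where 68.6% of all protein-coding genes had one, and for 9 of 9 in the pooled BRG1 list, where 72.1% did. In both pooled lists the count was 8 of 9 against 67.7% of all genes, and *Fgf7* was the exception. In the replicates, 5, 4 and 3 ligands had a PBRM1 promoter peak, where the shares of all genes were 60%, 60.7% and 55.3%. For BRG1 the counts were 7, 6 and 7, and the shares of all genes were 66.1%, 65.1% and 65%. The PBRM1 counts thus lay below the BRG1 counts without overlap, 4 ± 1 against 6.67 ± 0.577 (SD, n = 3 each), and the two-sided exact permutation test gave p = 0.1, the smallest p that 3 against 3 allows.

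Only *Fgf10* and *Fgf18* had a promoter peak in all 6 replicate lists, 2 of 9 ligands against 51.9% of all genes. *Fgf16* was the 1 ligand with a promoter peak in all 3 BRG1 replicates and no PBRM1 replicate, a pattern found for 1.05% of all genes. *Fgf17* was the 1 ligand without a promoter peak in any replicate list, as for 29.6% of all genes. Between these lay *Fgf2* with 2 PBRM1 and 3 BRG1 replicates, *Fgf1* with 2 and 2, *Fgf9* with 1 and 3, *Fgf21* with 1 and 2, and *Fgf7* with 0 and 1.

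The ligand promoter peaks were also weaker than most promoter peaks. In the pooled PBRM1 list the strongest promoter peak per gene had a median fold enrichment of 6.91 (interquartile range 5.15 to 8.88, 15060 genes), while the 8 ligands had a median of 4.51 and ranged from 2.72 for *Fgf17* to 6.55 for *Fgf10*. In the pooled BRG1 list the median was 8.76 (6.28 to 11.3, 15818 genes), while the 9 ligands had a median of 5.69 and ranged from 2.89 for *Fgf17* to 6.96 for *Fgf2*. Every ligand with a pooled peak thus lay below the median gene of that list. The nearest to it were *Fgf10* for PBRM1, with 44.9% of genes lower, and *Fgf2* for BRG1, with 31.6% lower. That *Fgf2* peak had its summit at −2033 bp from an internal TSS, and the pooled BRG1 value at its main promoter site was 6.10. Because a fold enrichment is set against the background of its own list, the values of PBRM1 and BRG1 are given side by side and are not on a common scale.

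**Figure D1:**
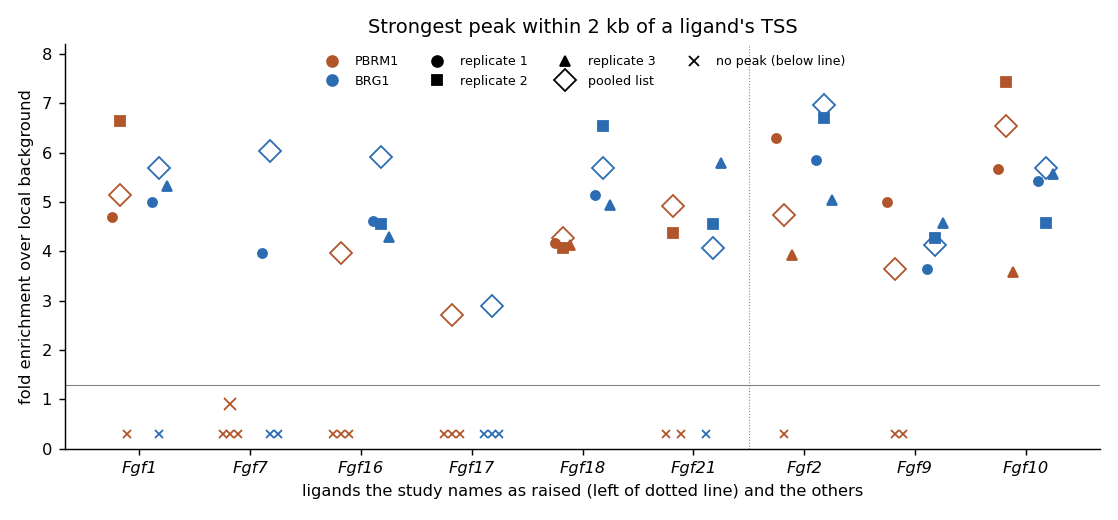
Fold enrichment over local background (vertical axis) of the strongest peak within 2 kb of a TSS for each ligand (horizontal axis), with PBRM1 in orange and BRG1 in blue, filled symbols for replicates 1 to 3, open diamonds for the pooled lists and crosses below the line where no peak was called. Filled symbols for all 6 replicates stand only at *Fgf10* and *Fgf18*, *Fgf16* has filled BRG1 symbols only, and *Fgf17* has open diamonds only, at 2.72 and 2.89.

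*Fgf18* (ENSMUSG00000057967, chr11:33117430-33147400, minus strand) had the fullest support among the ligands named as raised. Its promoter site at chr11:33147566-33148653 lay outside the gene, with pooled summits at −1035 bp (PBRM1) and −984 bp (BRG1) from the TSS. The fold enrichment there was 4.16, 4.06 and 4.13 in the PBRM1 replicates and 5.14, 6.54 and 4.94 in the BRG1 replicates. The means were 4.12 ± 0.0506 and 5.54 ± 0.868 (SD, n = 3 each), and relative to the median of each list over sites found in all 6 replicates, the antibodies overlapped. A stronger site lay in an intron at chr11:33122561-33123340, with 7.21, 6.66 and 5.24 for PBRM1 and 7.90, 7.98 and 9.85 for BRG1. This intron site had no other gene's TSS within 2 kb and was the strongest site within the *Fgf18* gene or promoter in both pooled lists, at 6.65 and 10.2. A second promoter site, over an exon, was seen only in the pooled PBRM1 list, at 2.52.

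*Fgf1* (ENSMUSG00000036585, chr18:38838673-38929472, minus strand) has 9 annotated TSSs, and its peaks were spread over several of them. At the most upstream TSS a peak was called only in the pooled BRG1 list, at 3.21. The site at the next TSS, chr18:38928868-38929206, had a fold enrichment of 6.64 in PBRM1 replicate 2 and 5.33 in BRG1 replicate 3 and no peak in the other 4 replicate lists. A site outside the gene, chr18:38930421-38930705, had 4.70 and 3.12 in PBRM1 replicates 1 and 2 and 4.54 in BRG1 replicate 1. At a TSS further inside the gene, replicate 1 of both antibodies had a peak, at 3.96 for PBRM1 and 5.01 for BRG1, that overlapped no pooled peak. Neither PBRM1 replicate 3 nor BRG1 replicate 2 had any *Fgf1* promoter peak.

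The steadiest *Fgf1* binding lay inside the gene. An intron site at chr18:38907335-38908082 had a peak in all 6 replicate lists, at 7.28, 7.81 and 4.03 for PBRM1 (6.37 ± 2.05) and at 6.63, 8.78 and 6.73 for BRG1 (7.38 ± 1.22; SD, n = 3 each). The ranges of the antibodies overlapped, with PBRM1 replicate 3 the lowest of the 6. Upstream, a site at chr18:39009830-39010469, with pooled summits at −80597 and −80574 bp, had BRG1 values of 7.83, 6.71 and 8.46 and PBRM1 values of 6.43 and 5.69 in replicates 1 and 2. In PBRM1 replicate 3 the peak lay beside it, at chr18:39009300-39009612, with 3.58. No other gene's TSS lay within 2 kb of this upstream site.

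*Fgf16* (ENSMUSG00000031230, chrX:105764279-105774939, plus strand) differed between the antibodies in its replicate calls. Its promoter site at chrX:105762973-105763381, with pooled summits at −1116 and −1128 bp, had 4.61, 4.55 and 4.28 in the BRG1 replicates (4.48 ± 0.175, SD, n = 3). No PBRM1 replicate had a peak there. The pooled PBRM1 list did call the site, at 3.96 with a −log10 q of 5.45, against 5.92 and 12.8 for pooled BRG1, so the absence from the replicates means that no peak passed the threshold and not that PBRM1 signal was absent. A further site over an exon had a peak in BRG1 replicate 2 alone, at 3.72.

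*Fgf7* (ENSMUSG00000027208, chr2:126034658-126091185, plus strand), also known as keratinocyte growth factor, was the 1 ligand without a PBRM1 promoter peak in any list, the pooled list included. BRG1 had a promoter peak in replicate 1, at 3.97, and in the pooled list at chr2:126034455-126034758, at 6.03 with the summit 11 bp from the TSS. An intron site at chr2:126053200-126053487 had BRG1 peaks of 4.53 and 3.98 in replicates 2 and 3 and again none of PBRM1. Of the 8 sites in the *Fgf7* territory, 6 were in the pooled BRG1 list only, 1 in the pooled PBRM1 list only and 1 in both. No other gene's TSS lies in the 100 kb upstream of *Fgf7*.

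*Fgf17* (ENSMUSG00000022101, chr14:70636203-70642268, minus strand) had the lowest value of the ligands when each was taken at its strongest pooled promoter peak. Its site at chr14:70641983-70642377 was called only in the pooled lists, at 2.72 for PBRM1 and 2.89 for BRG1, with −log10 q of 2.00 and 2.26. Only 0.471% and 0.607% of genes with a promoter peak had a lower value in those lists. *Fgf21* (ENSMUSG00000030827, chr7:45613886-45615490, minus strand) is a gene of 1605 bp in a dense region, with the TSSs of 11 other protein-coding genes in its upstream 100 kb. A site at chr7:45617202-45617760 had 4.36 in PBRM1 replicate 2 and 5.79 in BRG1 replicate 3, and a site at chr7:45616432-45616711 had 4.56 in BRG1 replicate 2. Both lie within 2 kb of a TSS of *Fut1*, a fucosyltransferase gene, so they cannot be assigned to *Fgf21* alone.

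Of the remaining ligands, *Fgf10* (ENSMUSG00000021732, chr13:118669791-118792115, plus strand) had the highest pooled PBRM1 value at a promoter. Its site at chr13:118714704-118715832, over the exon at the protein-coding TSS, had 5.66, 7.43 and 3.59 in the PBRM1 replicates and 5.42, 4.58 and 5.57 in the BRG1 replicates. The PBRM1 replicates spread on both sides of the BRG1 replicates, at 5.56 ± 1.92 against 5.19 ± 0.537 (SD, n = 3 each). All 8 summits fell between 396 and 489 bp downstream of that TSS. The antisense gene *Gm16263* has a TSS within 2 kb, and reads of the assay carry no strand to separate them. Beyond this site and a pooled BRG1 peak beside it (4.37), the territory of *Fgf10*, 222325 bp long, held no pooled peak of either antibody.

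*Fgf2* (ENSMUSG00000037225, chr3:37348346-37410108, plus strand) had its main promoter site at chr3:37348130-37349147, across the most upstream TSS and within 2 kb of a TSS of the antisense gene *Fgf2os*. The values there were 5.85, 4.82 and 4.30 in the BRG1 replicates and 6.29 and 3.93 in PBRM1 replicates 1 and 3. PBRM1 replicate 2 had no *Fgf2* promoter peak. A site near an internal TSS, chr3:37402063-37402549, had 5.44, 6.71 and 4.30 for BRG1 and 3.34 in PBRM1 replicate 3 only. An intron site at chr3:37373702-37374125 was in all 3 BRG1 lists as well, at 3.92, 3.18 and 4.17, and in PBRM1 replicate 1 at 4.13. BRG1 was therefore called at these 3 sites in every replicate, and PBRM1 in 1 or 2 replicates at each.

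*Fgf9* (ENSMUSG00000021974, chr14:58070547-58112720, plus strand) had 5 promoter sites spread over its 4 TSSs, all of them in both pooled lists, with pooled values from 2.44 to 4.13. The site at chr14:58074848-58075414, over an exon, had 3.54, 4.27 and 3.67 in the BRG1 replicates (3.83 ± 0.392, SD, n = 3) and no PBRM1 replicate peak. The site at chr14:58071933-58072194 had 5.00 in PBRM1 replicate 1 and 3.65 and 4.57 in BRG1 replicates 1 and 3. An intron site at chr14:58101180-58101669 showed the other pattern, with 4.69 and 4.23 in PBRM1 replicates 2 and 3 and no BRG1 replicate peak. The pooled lists held that intron site for both antibodies, at 4.30 and 3.71.

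**Figure D2:**
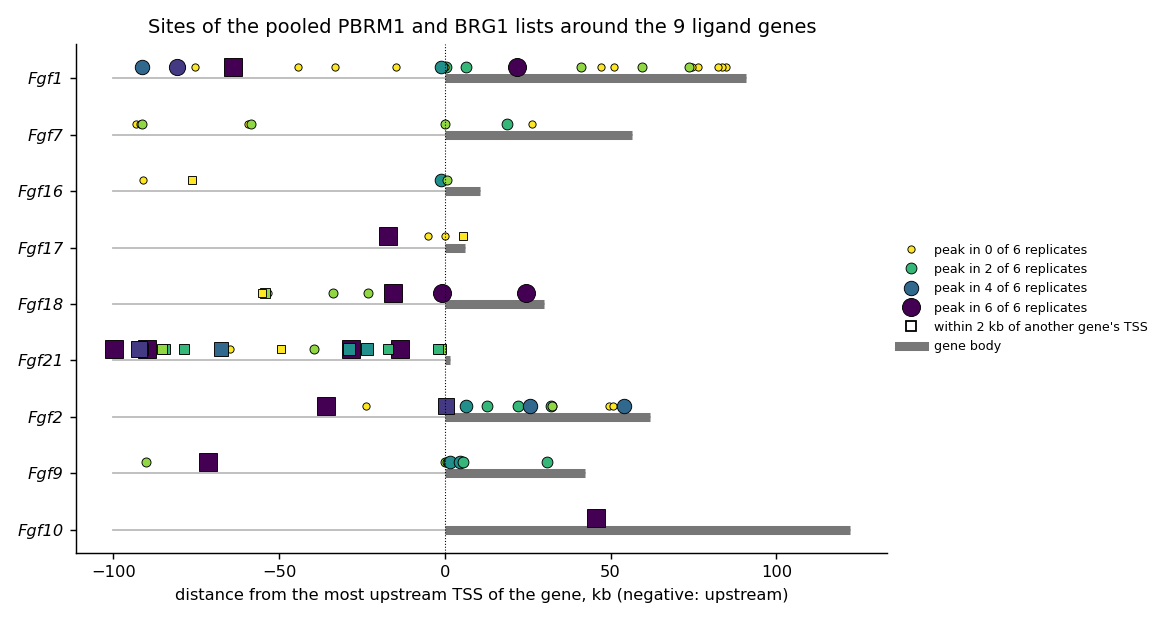
Sites of the merged pooled lists around each ligand, by distance in kb from the most upstream TSS (horizontal axis, negative upstream) with the gene body as a thick bar, where larger and darker symbols mark peaks in more of the 6 replicates and squares lie within 2 kb of another gene's TSS. Outside promoters, sites with a peak in all 6 replicates and no other gene nearby appear in the introns of *Fgf1* and *Fgf18*, while the upstream ones are all squares.

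Over the 9 territories the pooled lists merged into 89 sites, of which 44 were in both lists, 37 in the BRG1 list only and 8 in the PBRM1 list only. Over the genome these shares were 45.3%, 42.1% and 12.6%. A peak in all 6 replicates was found at 13 sites, 14.6% of them, against 14.0% of the 93421 sites of the genome. No replicate peak was found at 31 sites, 34.8% against 38.9% of the genome. The support of the ligand sites was thus close to that of all sites. By position, 2 of 22 sites at ligand promoters, 2 of 24 in gene bodies and 9 of 22 upstream at another gene's promoter were in all 6 lists. Of the 21 upstream sites away from other promoters, 0 were in all 6 lists and 12 were in no replicate list.

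A site in all 6 lists in the gene body or upstream window and away from promoters was found for 2 of 9 ligands, *Fgf1* and *Fgf18*, against 14.9% of all genes. All 3 BRG1 and no PBRM1 replicate had a peak at 4 of the 89 sites, against 2.22% of the sites of the genome, and the reverse held at 0 sites, against 0.0321%. These 4 were the *Fgf16* promoter site, the *Fgf9* site at chr14:58074848-58075414 and 2 sites upstream of *Fgf21*, near *Mamstr* and *Dbp*. The number of sites differed widely between ligands, from 24 for *Fgf1* and 18 for *Fgf21* to 4 each for *Fgf16* and *Fgf17* and 2 for *Fgf10*.

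The replicate lists held 25, 24 and 21 PBRM1 peaks and 41, 34 and 40 BRG1 peaks in the territories, 23.3 ± 2.08 against 38.3 ± 3.79 (SD, n = 3 each). The groups did not overlap, and the exact permutation test (two-sided) gave p = 0.1, the smallest possible. Per 10000 peaks of the list the counts were 10.9, 9.10 and 9.58 for PBRM1 and 10.1, 9.28 and 10.6 for BRG1, which overlapped (9.86 ± 0.919 against 10.0 ± 0.687, exact permutation p = 0.9). The lower PBRM1 count in the territories therefore went with shorter PBRM1 lists. In the pooled lists the ligands had a median of 6 PBRM1 and 7 BRG1 peaks per territory, and all protein-coding genes 5 and 7.

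The ligands named as raised and the others are set side by side without a test, since genes are not replicates. Among the 6 named as raised, 2, 3 and 1 had a promoter peak in the PBRM1 replicates and 4, 3 and 4 in the BRG1 replicates, and 5 and 6 in the pooled lists. Among the 3 others, 3, 1 and 2 had one in the PBRM1 replicates, 3, 3 and 3 in the BRG1 replicates, and 3 and 3 in the pooled lists. *Fgf10* of the others and *Fgf18* of those named as raised had full support. The 3 ligands without a PBRM1 promoter peak in any replicate, *Fgf7*, *Fgf16* and *Fgf17*, were all among those named as raised, and 35.3% of all genes had no PBRM1 promoter peak in any replicate. Sites in both pooled lists were 27 of 67 around the raised ligands and 17 of 22 around the others, where the share of all sites was 45.3%. These counts rest on few genes. *Fgf1* held 24 of the 67, with 8 in both lists, and *Fgf21* held 18, with 11 in both. *Fgf2* and *Fgf9* held 8 each of the 17.

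At the 13 sites with a peak in all 6 replicates, the antibodies could be compared in strength. Each fold enrichment was put on a log2 scale and the list's median over the 13092 such sites of the genome was subtracted. These medians were 7.39, 6.77 and 5.54 in the PBRM1 lists and 8.30, 8.27 and 8.37 in the BRG1 lists, so PBRM1 replicate 3 was lowest in general and not only at the ligands. Of the 13 sites, 4 belonged to the ligands themselves and 9 lay upstream at promoters of other genes. On this scale, none of the 4 ligand sites separated the antibodies. The PBRM1 minus BRG1 difference was 0.09 at the *Fgf1* intron site (exact permutation p = 0.9), 0.39 at the *Fgf10* promoter (exact permutation p = 0.3), −0.08 at the *Fgf18* intron site (exact permutation p = 0.8) and −0.07 at the *Fgf18* promoter (exact permutation p = 0.6).

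On the centred scale, the antibodies did not overlap at 4 of the 13 sites, against 25.6% of common sites genome-wide. All 4 were at promoters of neighbouring genes. Relative PBRM1 strength was lower by log2 differences of −0.44 at *Bbs12* and *Cetn4*, upstream of *Fgf2*, and −0.23 at *Rpl18* and *Sphk2*, upstream of *Fgf21*. It was higher by 0.45 at *Micu2*, upstream of *Fgf9*, and by 0.22 at *Npm1*, upstream of *Fgf18*. *Npm1* encodes a nucleolar protein, and its promoter had the highest PBRM1 fold enrichment of any site in the territories, with a mean of 13.6 ± 2.37 (SD, n = 3). Each of these sites had an exact permutation p of 0.1 and a Benjamini-Hochberg adjusted p of 0.39 over all common sites, the smallest adjusted p reached. The remaining 5 upstream sites lay at *Arhgap26*, *Npm2*, *Rasip1*, *Mamstr*, and *Car11* with *Dbp*. With fold enrichment as deposited, PBRM1 was lower at 11 of the 13 sites, and after centring at 7, so the direction at single sites depended on the scale. As deposited, the antibodies did not overlap at 6 of the 13 sites, against 39.3% of common sites. The *Fgf18* intron and promoter sites were among these 6, with PBRM1 lower, while the *Fgf1* intron and *Fgf10* promoter sites still overlapped.

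**Figure D3:**
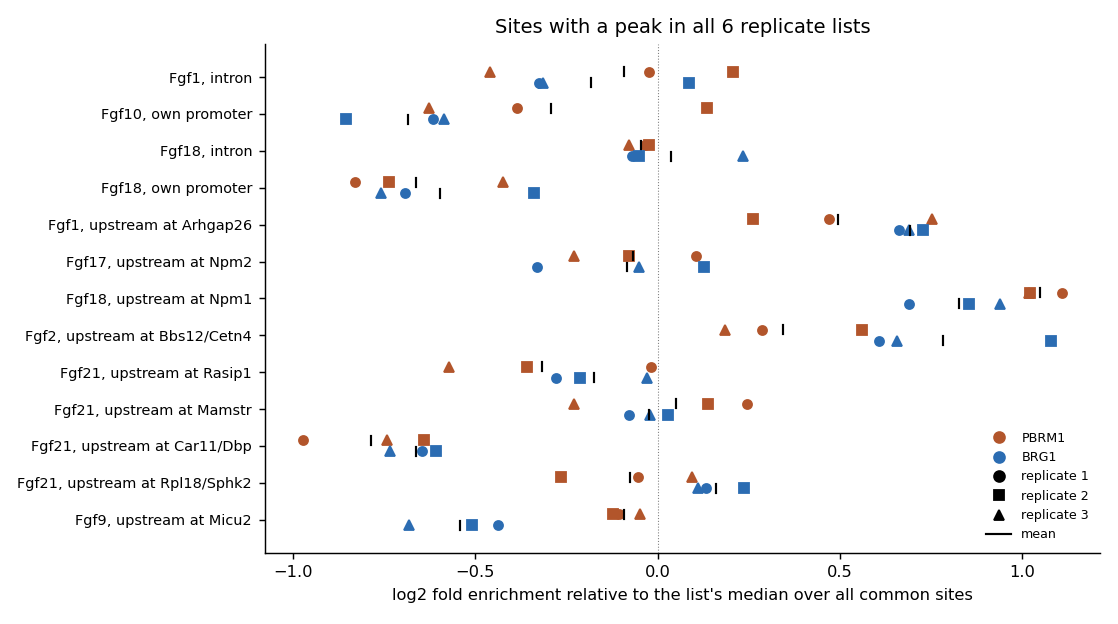
The 13 sites with a peak in all 6 replicate lists (rows) by log2 fold enrichment relative to the list's median over all common sites (horizontal axis), with PBRM1 replicates in orange, BRG1 replicates in blue and a black bar for each mean of 3. The 4 ligand sites at the top have overlapping antibodies, and the *Npm1* promoter upstream of *Fgf18* lies furthest to the right.

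The promoters of the ligands were compared by the ratio of observed to expected CpG dinucleotides in the 501 bases centred on a protein-coding TSS, taking the highest ratio per gene. CpG-rich promoters are those of many broadly used genes, and CpG-poor promoters are often tissue-restricted. The ratio was 0.929 for *Fgf18*, 0.896 for *Fgf16*, 0.836 for *Fgf9* and 0.831 for *Fgf2*. It was 0.561 for *Fgf7*, 0.441 for *Fgf17*, 0.367 for *Fgf21*, 0.359 for *Fgf1* and 0.358 for *Fgf10*. The ligands thus fell into both classes, 4 at or above a ratio of 0.6 and 5 below.

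Across all genes, the share with a promoter peak in all 6 replicates rose with this ratio, from 2.50% below a ratio of 0.2 to 85.7% above 1. Among genes at or above 0.6, 81.5% had such a peak, and among the 4 ligands of that class only *Fgf18* did. *Fgf2*, *Fgf9* and *Fgf16* had promoter peaks in 5, 4 and 3 replicate lists. Below 0.6, 14.1% of genes had a promoter peak in all 6 lists, and among the 5 ligands of that class *Fgf10* did. The *Fgf10* peak lay downstream of the printed promoter, in a summit window with a ratio of 0.698.

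**Figure D4:**
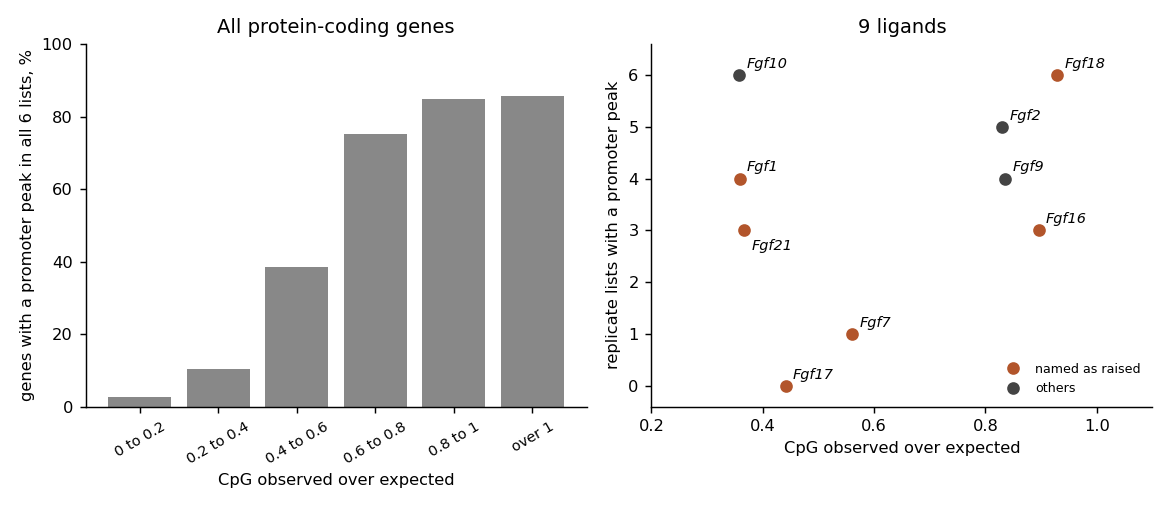
Left, share of all protein-coding genes with a promoter peak in all 6 replicate lists (vertical axis, %) by CpG observed over expected (horizontal axis), and right, the number of replicate lists with a promoter peak against the same ratio for each ligand. The share rises from 2.50% to 85.7%, while the ligands lie at 3 to 6 lists above a ratio of 0.6 and at 0 to 6 lists below it.

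The ligand promoters were also searched, on both strands of the same 501-base windows, for 5 short strings. The first 4 are potential binding motifs that the study drew from its PBRM1 and BRG1 ChIC-Seq peaks and discusses at another gene. The last is the E-box CANNTG, the sequence bound by basic helix-loop-helix proteins such as HAND2. The string CCAGGGCCT was in 1.72% of all 54346 promoter windows and at 0 ligands, although the *Fgf1* intron site held it in the window at its summit. The 9 ligands had 24 windows, because several have more than 1 TSS, so shares of windows are set against counts of these 24. TCCCAG was in 47.6% of all windows and in 13 of the 24, at 7 ligands. It had 2 matches in the printed *Fgf18* promoter site and 1 in the *Fgf16* site. GACCACT was in 4.28% of windows and in 1 of the 24, at *Fgf7*. TCGGTG was in 14.3% of windows and in 3 of the 24, at *Fgf1* and *Fgf18*. The E-box was in 84.6% of windows and in 21 of the 24, at all 9 ligands, so its presence does not set them apart. The *Fgf10* promoter and *Fgf18* intron summit windows held none of the 5 strings. A match is a description of the letters, and windows without one say nothing about the factor.

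The promoters of the receptor pathway were counted in the same way, without a test, beside the 51.9% of all genes with a promoter peak in all 6 replicate lists. Of 7 receptors and cofactors, 5 had a promoter peak in all 6 replicate lists, namely *Fgfr1*, *Fgfr2*, *Fgfr3* and *Fgfr4*, the receptor tyrosine kinases, and *Fgfrl1*, a receptor without a kinase domain. At *Fgfr2* the pooled PBRM1 value was 7.67 and the pooled BRG1 value 7.15. *Klb*, which encodes the β-Klotho cofactor of FGF21, had no promoter peak in either pooled list. All 7 docking and signal genes (*Frs2*, *Frs3*, *Grb2*, *Gab1*, *Sos1*, *Ptpn11* and *Shc1*) and all 7 feedback inhibitors found in the annotation (*Spry1*, *Spry2*, *Spry4*, *Spred1*, *Spred2*, *Dusp6* and *Il17rd*) had one in all 6 lists. Their pooled PBRM1 values ran from 4.85 for *Spred2* to 9.89 for *Il17rd*. *Spry3* was not found among the protein-coding entries.

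Other FGF genes resembled the 9 ligands in their counts. Of 9 other secreted FGFs, 6 had a promoter peak in both pooled lists and 2 in all 6 replicate lists, *Fgf15*, an endocrine ligand, at 5.52 and 5.50 in the pooled PBRM1 and BRG1 lists, and *Fgf20*, of the *Fgf9* subfamily, at 7.98 and 9.35. *Fgf23*, an endocrine ligand made mainly in bone, had none in either pooled list. Of the 4 intracellular FGFs, which are not secreted, 4 had one in both pooled lists and *Fgf11* and *Fgf12* in all 6 replicate lists. No test was made between these lists, which are small and were chosen with results known.

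**Figure D5:**
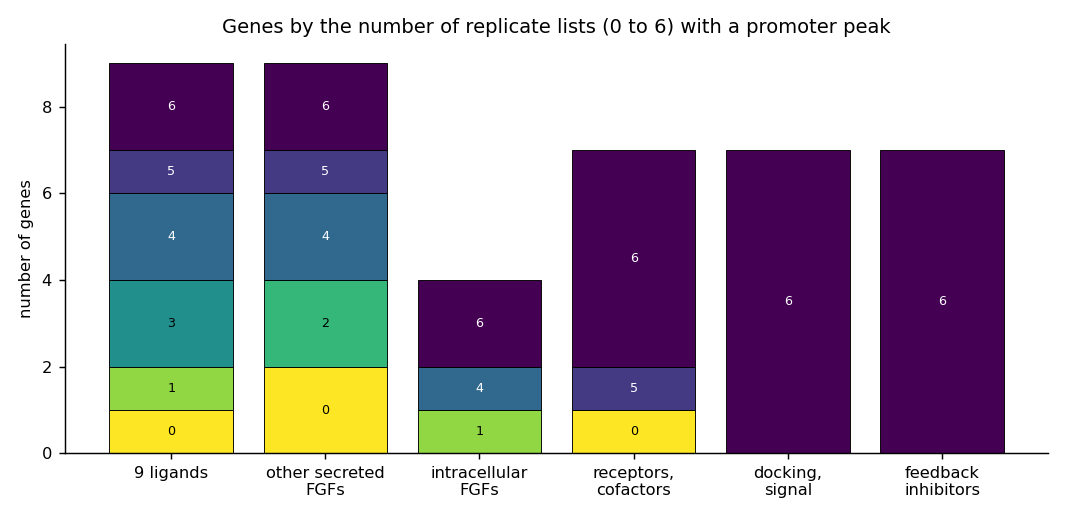
Number of genes (vertical axis) in each FGF list (horizontal axis), stacked and labelled by the number of replicate lists, 0 to 6, with a promoter peak. All 7 docking and all 7 feedback genes stand at 6 lists, while the 9 ligands spread from 0 to 6.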

How the data were processed

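ChIC-Seq was performed on WT mUSCs with antibodies to PBRM1 and BRG1, 3 libraries each. Per the submitters' processing notes, cutadapt, Bowtie2 and MACS2 were used with build GRCm38.p5. The deposited MACS 2.2.7.1 peak lists (6 replicate and 2 pooled) hold, per the file headers, peaks at q 0.05 called without a control, each with the summit pileup signal, the fold enrichment (a ratio to local background within 10000 bp) and the −log10 q-value. The authors pooled replicates by calling peaks on their fragments together. Peaks were assigned to genes of GENCODE M21 by an overlap of 1 bp in Python 3.11.15 (numpy 2.4.6, pandas 2.3.3, scipy 1.17.1, matplotlib 3.10.9), and overlapping pooled PBRM1 and BRG1 peaks were merged into sites. A replicate site value is that of its strongest overlapping peak. Groups were compared over replicates by two-sided exact permutation tests, and values at sites in all 6 replicate lists were adjusted by Benjamini-Hochberg over all such sites. The scripts were tested on simulated data. PBRM1 replicate 3 had the most fragments and the fewest peaks of the 6 replicates, and no depth-matched calls were made.

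All 9 ligands are named. Other FGF pathway genes are named when their promoter had a peak in all 6 replicate lists or in neither pooled list, and upstream genes when the peak at their promoter was in all 6. Genes near sites found in BRG1 replicates only, the ends of a range and *Fgfr2* were named after their values were seen. The members, the lists and these rules were chosen with earlier results of these data known. Sequences are shown for the *Fgf18* sites in all 6 lists, for the *Fgf16* site and for promoters of further ligands. The sequences at the *Fgf1* intron site and the *Fgf10* promoter site, also in all 6 lists, are not shown. No label says whether the replicate numbers pair the libraries. Correlations of same-numbered deviations were −0.0424, −0.0139 and −0.0134, which cannot show whether libraries of the 2 antibodies shared a culture. Alternatives were other promoter and upstream windows, TSS sets, stricter peaks, other scales, leaving out each replicate and a replicate block. The 2 IgG libraries were not analysed here.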

Additional observations from a re-analysis of the deposited data

How the results depend on the processing

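The lower number of ligands with a PBRM1 promoter peak and of PBRM1 peaks in the territories kept its direction under the 15 alternatives of each. The replicates of the antibodies came to overlap or touch, however (exact permutation p = 0.2), for both narrower promoter windows and for promoter peaks at −log10 q of at least 5 or a fold enrichment of at least 4. The same held for territory peaks at −log10 q of at least 5, and per 10000 peaks the difference was −0.15 (exact permutation p = 0.9). Leaving out each replicate gave differences of −3.17 to −2.17 ligands and −17.2 to −13.7 peaks. Each had an exact permutation p of 0.2, the smallest possible with a replicate left out. With the replicate number as a block the differences were −2.67 ligands and −15 peaks (exact permutation p = 0.25, the smallest that 3 pairs allow). Pooled promoter counts fell from 8 to 5 for PBRM1 at a fold enrichment of at least 4, and to 2 for PBRM1 and from 9 to 5 for BRG1 when a pooled peak had to overlap peaks in all 3 replicates. The pooled peaks in the territories, 53 for PBRM1 and 82 for BRG1, became 85 and 129 with 200 kb upstream, 33 and 54 without peaks within 2 kb of another gene's TSS, 26 and 36 with only peaks nearest to a TSS of a ligand, 34 and 53 at −log10 q of at least 5, 21 and 42 at a fold enrichment of at least 4, and 13 and 23 with support from all 3 replicates. The 4 common sites without overlap became 6 with fold enrichment as deposited, 7 by percentile within the list and 5 with the replicate block. They ranged from 4 to 7 when each replicate was left out, with 7 without PBRM1 replicate 3. The *Fgf18* intron and promoter sites were without overlap as deposited and by percentile. The share over all common sites rose as well, from 25.6% to 39.3% as deposited and 41.3% by percentile. It was 41.5% with the block and 34.2% to 38.9% when a replicate was left out. At −log10 q of at least 5, 3, 2 and 0 ligands kept a PBRM1 promoter peak and 5, 3 and 5 a BRG1 promoter peak in the replicates. The cause of these changes was not tested.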
